A study of Mus musculus with 16 samples.

Results

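The 10 genes described here are regulators and surface proteins of red cell precursors. They comprise the transcription factors Gata1, Tal1, Klf1, Nfe2 and Bcl11a, the GATA1 partner Zfpm1, the erythropoietin receptor Epor, the hormone gene Fam132b, and Ermap and Trim10. They were taken by name from a fixed list and by no rule on their values, but the list was chosen with earlier results of these data known. They were 10 of the 49585 gene identifiers in the count tables. All 10 were found and all 10 passed the filter on low counts. Fam132b appears under its other symbol, Erfe, in the annotation used.

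RNA was sequenced from FACS-purified cells, given as neutrophils, out of the bones of C57BL/6 mice aged 8 to 12 weeks. P2KO carried Vav:cre with a floxed gene for PHD2, an oxygen-sensing prolyl hydroxylase, and P2WT were the controls of that line, given as wild type with no further genotype. P2H2KO carried Vav:cre with floxed genes for both PHD2 and the hypoxia-inducible factor subunit HIF2α, and P2H2WT were the wild-type controls of this double line. Vav:cre acts in blood-forming cells as a whole and not in neutrophils alone, so red cell precursors of the deficient mice fall within its reach. Each group held 4 libraries, and nothing in the labels says that each came from another mouse, so the p values measure the spread between these libraries, which may in part be technical.

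The 16 libraries held 23450746 to 28601284 counts each. Pairs of libraries of 1 group differed by more than sampling noise, with at least 10.6 as the chi-square over its degrees of freedom in 24 pairs. Egln1, the gene of PHD2, was at 43.2 to 58.8 CPM (counts relative to library size) and Epas1, the gene of HIF2α, at 2.55 to 24.4 CPM. Neither had a lower mean in the groups labelled as lacking it than in the controls of the same line. Epas1 differed between the control groups, at 8.70 to 11.3 CPM in P2WT and 2.55 to 4.97 in P2H2WT. It was at 6.76 to 24.4 CPM in P2KO and 3.42 to 8.39 in P2H2KO. These counts cover whole genes and do not show the floxed exons, so they do not check the genotype labels, and the deficient groups are those labelled so. A list of 14 neutrophil genes, S100a8, Ly6g and Elane among them, held 3.69% to 8.33% of all counts. All 14 were detected. A list of 6 globin genes held 1.64% to 3.68% of counts and 25 other red cell genes held 1.64% to 3.51%, so transcripts of red cell precursors were present in every library of the sorted cells. The embryonic globins Hbb-bh1 and Hba-x stayed under 1 CPM in all libraries.

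Red cells arise from bone marrow progenitors under a small set of transcription factors. GATA1 binds GATA motifs together with its partner FOG1, the product of Zfpm1, and acts in a complex with TAL1, while KLF1 binds CACCC-type motifs and switches on globin and membrane genes. Erythropoietin, the kidney hormone whose gene is a classical target of HIF2α, binds the receptor encoded by Epor and keeps precursors alive through JAK2 and STAT5, and erythroferrone, encoded by Fam132b, is secreted by stimulated precursors and lowers hepcidin.

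Promoter letters were examined because these genes are known to be wired to one another through GATA and KLF factors. RefSeq start sites on GRCm38.p6 were at hand for 9 of the 10 genes, all but Nfe2. In the 250 bases before a start, a GATA motif occurred on either strand in 5 of the 9 genes. The motif was TGATAA, the same word with an A at its start (AGATAA), with a G at its end (TGATAG) or with both changes (AGATAG). The genes were Klf1, Tal1, Epor, Ermap and Trim10. The same letters occurred in 26.5% of all 32851 windows of that length, and in 5 of the 10 windows of the 9 genes. The KLF letters CCNCNCCC occurred in 6 of the 9 genes (Gata1, Tal1, Epor, Zfpm1, Bcl11a and Fam132b). That was 6 of the 10 windows, against 45.9% of all windows. The core letters of a hypoxia response element are ACGTG and its variant with a G at the start (GCGTG). They occurred in Zfpm1, Bcl11a and Fam132b, 3 of 9 genes and 3 of the 10 windows, against 38.6% of all windows. A match describes the letters only and shows no binding. The windows of 4 of these 5 genes are printed here because the genes carry the GATA letters and moved together across the libraries, as described further on. Tal1 did so too, but the table lists 2 starts for it and the letters lay before only 1 of them, by 205 bases, so it is not printed. Capitals mark the GATA and KLF letters, and each window ends before the first annotated exon. Epor spans chr9:21963577-21963826 (minus strand), Klf1 chr8:84901732-84901927 (plus), Ermap chr4:119190012-119190245 (minus) and Trim10 chr17:36869324-36869573 (plus).
Epor: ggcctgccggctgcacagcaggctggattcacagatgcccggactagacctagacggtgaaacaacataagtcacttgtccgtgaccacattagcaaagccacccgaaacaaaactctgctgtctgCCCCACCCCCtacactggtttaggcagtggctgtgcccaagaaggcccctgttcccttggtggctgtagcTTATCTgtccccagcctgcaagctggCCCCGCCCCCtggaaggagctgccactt
Klf1: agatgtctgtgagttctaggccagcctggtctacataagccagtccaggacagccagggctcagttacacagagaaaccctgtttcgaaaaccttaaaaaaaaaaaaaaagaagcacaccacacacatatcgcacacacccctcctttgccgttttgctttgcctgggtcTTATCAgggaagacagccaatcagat
Ermap: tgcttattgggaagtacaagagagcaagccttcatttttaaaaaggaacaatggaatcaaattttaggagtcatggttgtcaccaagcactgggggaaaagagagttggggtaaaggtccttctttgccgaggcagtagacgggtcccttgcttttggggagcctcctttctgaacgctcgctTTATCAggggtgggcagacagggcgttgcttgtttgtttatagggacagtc
Trim10: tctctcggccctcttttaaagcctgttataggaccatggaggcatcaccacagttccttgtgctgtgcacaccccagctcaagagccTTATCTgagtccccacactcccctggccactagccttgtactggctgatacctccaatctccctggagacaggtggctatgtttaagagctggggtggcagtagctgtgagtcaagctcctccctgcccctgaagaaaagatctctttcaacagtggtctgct
The GATA letters began 54 bases before the start in Epor, 80 in Klf1, 67 in Ermap and 163 in Trim10, in each on the minus strand relative to the gene. In Epor 4 KLF matches, which overlapped in pairs, lay on both sides of the GATA letters and did not overlap them. None of the 4 windows held the hypoxia response letters.

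Levels were compared between genes as CPM per kilobase of exon, averaged over the 16 libraries. Trim10, a tripartite-motif protein of late red cell precursors, had the highest level at 236 CPM per kilobase. It was followed by Klf1 at 217, Nfe2 at 141, Ermap at 138, Zfpm1 at 129, Tal1 at 96.1, Gata1 at 62.04, Epor at 57.02, Bcl11a at 5.03 and Fam132b at 1.17 CPM per kilobase. The step from Klf1 to Nfe2, from Zfpm1 to Tal1 and from Tal1 to Gata1 kept its order in 16 of 16 libraries. So did the widest steps, from Epor to Bcl11a (11.3 times) and from Bcl11a to Fam132b (4.31 times). The remaining neighbours were closer. Trim10 exceeded Klf1 in 12 libraries, Ermap exceeded Zfpm1 in 13 and Gata1 exceeded Epor in 15, whereas Nfe2 exceeded Ermap in only 8 of 16. Of the 10 genes, 8 ranked above 94.2% of the genes tested, while Bcl11a ranked above 51.9% and Fam132b above 27.2%.

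**Figure D1:**
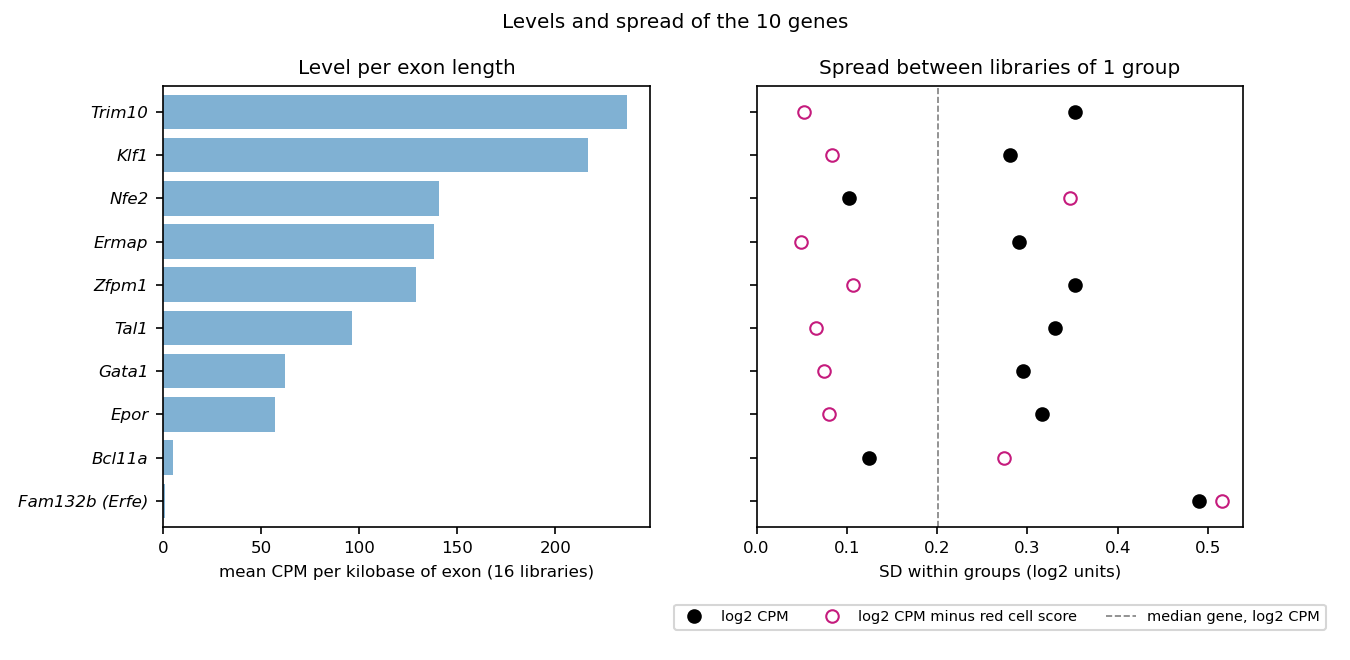
The left panel plots the mean level of each gene in CPM per kilobase of exon over 16 libraries, and the right panel the standard deviation (SD) between libraries of 1 group in log2 units, before (filled) and after (open) subtraction of the red cell score of the library. Trim10 is highest at 236 CPM per kilobase, and in 7 genes the SD falls from 0.28 to 0.35 to between 0.050 and 0.11, while it rises in Nfe2 and Bcl11a.

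The values below are CPM on library sizes scaled by TMM (trimmed mean of M values), and libraries are named by group and replicate number. Gata1 (ENSMUSG00000031162, chromosome X, 7959260 to 7978071, minus strand) encodes the central activator of red cell genes. It was at 179.9, 179, 115 and 184 CPM in P2KO replicates 1, 5, 6 and 9, and at 148, 169.6, 128 and 146 CPM in P2WT replicates 3, 4, 7 and 10. In the double line it was at 187, 154, 93.9 and 137 CPM in P2H2KO replicates 11, 12, 15 and 17, and at 157, 176, 132 and 134 CPM in P2H2WT replicates 13, 14, 16 and 18. P2KO replicates 1, 5 and 9 lay above every control of their line and replicate 6 lay below every one, so the groups overlapped. In the double line the deficient group held both the highest and the lowest library. The group means were 165 ± 33.1 (SD, n = 4) in P2KO, 148 ± 17.2 in P2WT, 143 ± 38.7 in P2H2KO and 149 ± 21.03 in P2H2WT.

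The groups also overlapped for the other partners of Gata1. Zfpm1 (chromosome 8, 122282141 to 122337251), which encodes the GATA1 cofactor FOG1, ranged from 367 to 567 CPM in P2KO, 381 to 519 in P2WT, 267 to 578 in P2H2KO and 335 to 576 in P2H2WT. Tal1 (chromosome 4, 115056426 to 115071755), a basic helix-loop-helix factor of the same complex, ranged from 302 to 515 CPM in P2KO, 337 to 482 in P2WT, 283 to 569 in P2H2KO and 354 to 541 in P2H2WT. In both genes the widest range was that of P2H2KO, and it enclosed the range of its control group.

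Klf1 (ENSMUSG00000054191, chromosome 8, 84901928 to 84905291, plus strand) encodes the activator of adult globin and red cell membrane genes. It was at 375, 377, 246 and 392 CPM in P2KO and 318, 357, 282 and 310.02 CPM in P2WT, with replicates in the order given for Gata1. In P2H2KO it was at 424, 335, 219 and 304 CPM, and in P2H2WT at 344, 407, 307 and 303 CPM. P2KO replicate 6 and P2H2KO replicate 15 were again the lowest libraries of their lines.

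Epor (ENSMUSG00000006235, chromosome 9, 21958897 to 21963506, minus strand), the erythropoietin receptor, was at 135, 141, 80.5 and 145 CPM in P2KO and 115, 139.8, 92.6 and 109 CPM in P2WT. In P2H2KO it was at 140.2, 112, 73.6 and 95.1 CPM, and in P2H2WT at 116, 122, 101 and 95.9 CPM. The deficient and control libraries overlapped in both lines. The means were 125 ± 30.2 CPM in P2KO against 114 ± 19.6 in P2WT, and 105 ± 28.1 in P2H2KO against 109 ± 12.3 in P2H2WT (SD, n = 4 in each).

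Ermap (chromosome 4, 119175457 to 119190011), which encodes a membrane protein of red cell precursors that carries the Scianna blood group, ranged from 579 to 914 CPM in P2KO and 630.04 to 899 in P2WT. Its range in P2H2KO was 470.3 to 889.7 CPM and in P2H2WT 639 to 813. Trim10 (chromosome 17, 36869574 to 36877833) was at 616, 690.1, 383 and 572 CPM in P2KO and 524, 631, 426 and 439 CPM in P2WT, and at 655, 583, 304 and 424 CPM in P2H2KO and 591, 668, 491 and 495 CPM in P2H2WT. The lowest of all 16 libraries was P2H2KO replicate 15 for each of Gata1, Zfpm1, Tal1, Klf1, Epor, Ermap and Trim10. The highest library exceeded it by 1.94 to 2.27 times.

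**Figure D2:**
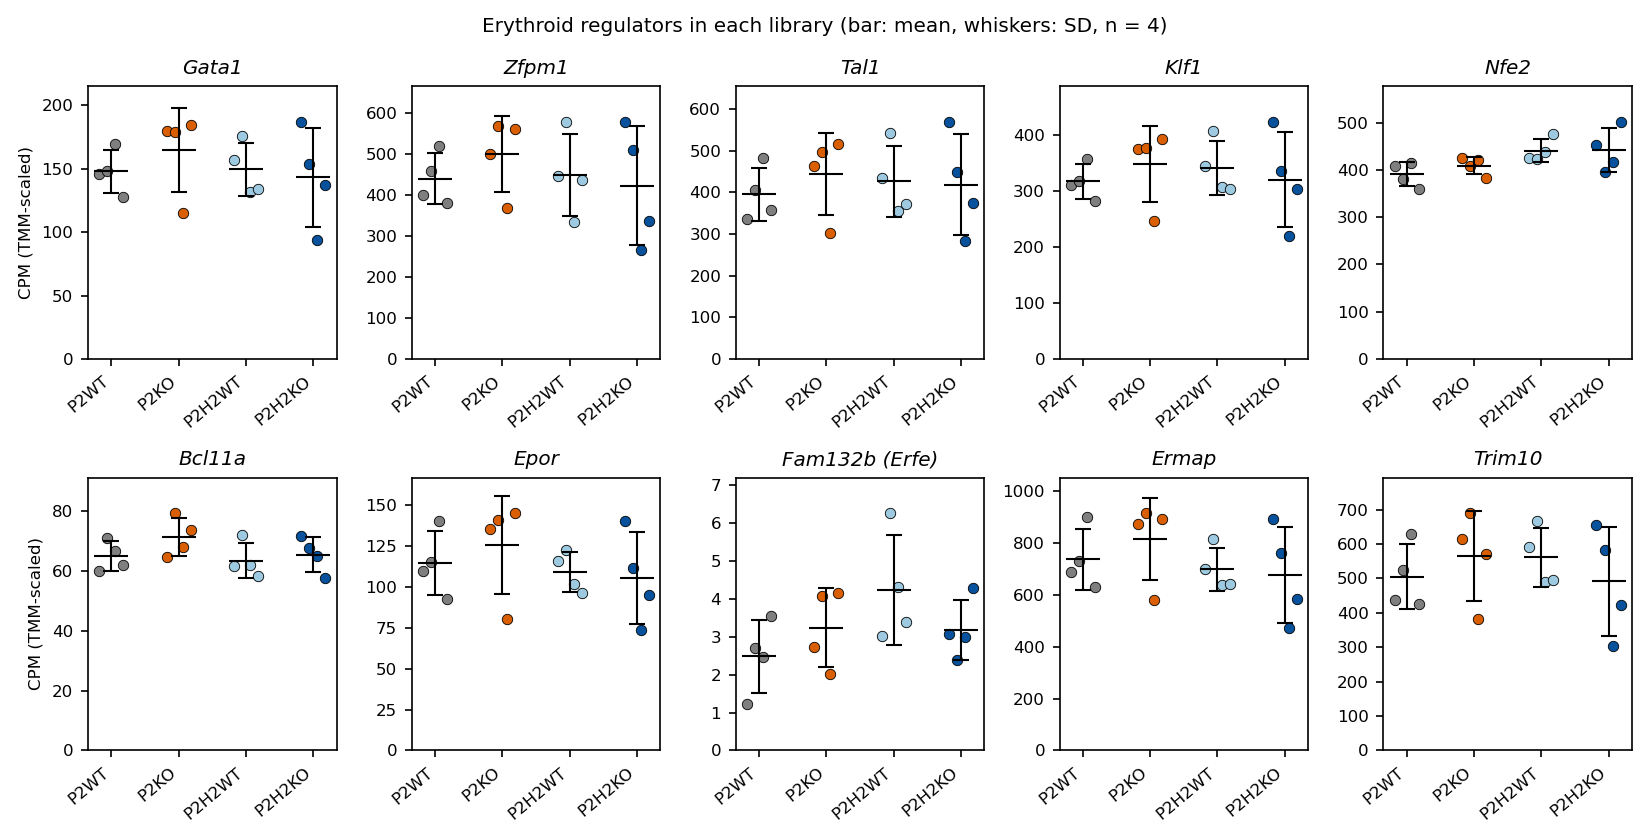
Each point is the level of 1 gene in 1 library in TMM-scaled CPM, in 4 groups of 4 libraries, with the mean as a bar and the SD as whiskers. All deficient groups overlap their controls. In Gata1, Klf1, Epor and Ermap P2KO replicate 6 sits apart below the other P2KO libraries, for example at 115 against 179 to 184 CPM for Gata1, and in Nfe2 and Bcl11a it lies among them.

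The other genes had patterns of their own. Nfe2 (ENSMUSG00000058794, chromosome 15, 103248212 to 103258403, minus strand) encodes the p45 subunit of a factor that acts in red cell precursors and in megakaryocytes. It was at 425, 408, 420.5 and 384 CPM in P2KO and 381, 414, 359 and 409 CPM in P2WT, and at 453, 395, 418 and 502 CPM in P2H2KO and 425, 424, 437 and 476 CPM in P2H2WT. P2KO replicate 6 and P2H2KO replicate 15, lowest in the genes above, were neither lowest nor highest in their groups for Nfe2.

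Bcl11a (chromosome 11, 24078056 to 24174123), a repressor of globin genes that is also a B cell factor, was at 64.6, 79.3, 68.1 and 73.6 CPM in P2KO and 71.0, 66.8, 62.1 and 60.02 CPM in P2WT. It was at 71.5, 67.6, 64.9 and 57.7 CPM in P2H2KO and 61.7, 71.9, 62.0 and 58.4 CPM in P2H2WT, so both pairs of groups overlapped. Its exons share 316 bases with the antisense gene 4930538E20Rik, and strand use in the counting is not given, so reads of the pair cannot be told apart there.

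Fam132b (chromosome 1, 91366430 to 91374217) was the weakest gene, with 34 to 157 counts per library, and its exons share 357 bases with Ilkap on the opposite strand. It was at 2.72, 4.07, 2.02 and 4.15 CPM in P2KO and 2.71, 2.47, 3.56 and 1.23 CPM in P2WT, and at 3.07, 2.38, 2.98 and 4.28 CPM in P2H2KO and 3.01, 6.26, 4.30 and 3.39 CPM in P2H2WT. The highest library, P2H2WT replicate 14, exceeded the lowest, P2WT replicate 10, by 5.10 times. The groups overlapped in each line.

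The first comparison set P2KO against P2WT and asked which transcripts change without PHD2. None of the 10 genes passed the threshold in edgeR (adjusted p under 0.05), against 0.0437% of the 13734 genes tested, 0 of 10 had an unadjusted p under 0.05 (3.49% of all genes), and DESeq2 also called 0 of 10. The groups did not overlap in 0 of the 10 genes and in 2.25% of all genes. A count of 0 in 10 is near that background. All 10 fold changes were above 0, as were 57.8% of those of all genes, and their median was 0.16 on the log2 scale against 0.020 for all genes. Gata1 had a log2 fold change of 0.16 (SE 0.15), Klf1 of 0.14 (SE 0.15), Tal1 of 0.18 (SE 0.18), Zfpm1 of 0.19 (SE 0.15) and Epor of 0.14 (SE 0.19). Trim10 was at 0.17 (SE 0.19), Ermap at 0.15 (SE 0.16), Nfe2 at 0.077 (SE 0.078), Bcl11a at 0.15 (SE 0.081) and Fam132b at 0.40 (SE 0.33). The 95% interval for Epor ran from -0.28 to 0.57, or from 0.821 to 1.49 times the control level. Without P2KO replicate 6 the fold changes of Gata1, Klf1, Tal1, Zfpm1, Epor, Ermap and Trim10 lay between 0.28 and 0.33, the median of the 10 genes was 0.31 and 7 of 10 had an unadjusted p under 0.05, against 12.2% of all genes in that fit. None was called then either (smallest edgeR adjusted p 0.406), against 0.0431% of all genes. Leaving out other libraries gave medians from 0.0995 (without P2WT replicate 7), 0.10 (without P2KO replicate 5) and 0.11 (without P2KO replicate 9) to 0.26 (without P2WT replicate 4), with all 10 above 0 each time.

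Red cell markers had fold changes of the same sign in that comparison. All 25 tested genes of the red cell list had fold changes above 0, with a median of 0.15, and 5 of 5 tested globin genes did, with a median of 0.050, and none of them was called by edgeR or by DESeq2 or had an unadjusted p under 0.05. In such bulk libraries, fewer cells of a type and less RNA per cell cannot be told apart. Fold changes with a red cell score as a covariate are given further on.

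The comparison of P2H2KO with P2H2WT asked what changes when HIF2α is lacking as well. Again 0 of the 10 genes were called by edgeR, against 0.0744% of the 13435 genes tested, 0 had an unadjusted p under 0.05 (2.63% of all genes) and DESeq2 called 0. The groups did not overlap in 0 of the 10 genes and in 1.71% of all genes. Here 2 of 10 fold changes were above 0, against 50.5% of all genes, and the median was -0.056. Gata1 was at -0.063 (SE 0.19), Klf1 at -0.087 (SE 0.19), Tal1 at -0.024 (SE 0.22), Zfpm1 at -0.084 (SE 0.25) and Epor at -0.050 (SE 0.18). Ermap was at -0.044 (SE 0.19), Trim10 at -0.19 (SE 0.23), Nfe2 at 0.0051 (SE 0.093), Bcl11a at 0.044 (SE 0.092) and Fam132b at -0.42 (SE 0.26). The sign turned with single libraries. Without P2H2KO replicate 15 the fold changes of 8 of 10 genes were above 0, with a median of 0.072, without P2H2WT replicate 14 those of 7, with a median of 0.013, and without P2H2KO replicate 11 those of 0, with a median of -0.22. Of the red cell list 23 of 25 genes had fold changes below 0, and 14 of 14 neutrophil genes had fold changes above 0 (median 0.19), with none called in either list by edgeR or DESeq2 (0 of 25 and 1 of 14 at an unadjusted p under 0.05). With the red cell score as a covariate, as described further on, the median of the 10 genes was 0.041. The part of the neutrophil genes was not tested.

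The difference between the lines was tested over all 16 libraries. The P2 effect minus the P2H2 effect gave calls in 0 of the 10 genes and 0% of the 14080 genes tested (edgeR), with 0 of 10 at an unadjusted p under 0.05 (1.51% of all genes) and 0 called by DESeq2. All 10 contrasts were above 0, against 50.4% of all genes, with a median of 0.21. Leaving out single libraries moved the median from 0.070 (without P2H2KO replicate 15) to 0.38 (without P2H2KO replicate 11), and with the red cell score as a covariate 5 of 10 were above 0 with a median of 0.0023. For Epor the contrast was 0.19 (95% interval -0.41 to 0.78), for Gata1 0.22 (-0.34 to 0.78) and for Fam132b 0.80 (-0.16 to 1.76). All 25 red cell genes had contrasts above 0 as well, with a median of 0.26, and all 14 neutrophil genes had contrasts below 0, with a median of -0.22. None of either list was called by edgeR or DESeq2 or had an unadjusted p under 0.05 in either.

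Pooling both lines, each deficient group against its own controls, gave the narrowest intervals. It called 0 of 10 genes, against 0.17% of 14080 genes, with 0 of 10 at an unadjusted p under 0.05 (3.72% of all genes) in edgeR and 0 called by DESeq2. The log2 fold change was 0.046 for Gata1 (95% interval -0.23 to 0.33), 0.023 for Klf1 (-0.25 to 0.29), 0.071 for Tal1 (-0.25 to 0.39) and 0.048 for Zfpm1 (-0.29 to 0.39). For Epor it was 0.042 (-0.26 to 0.34), for Ermap 0.050 (-0.23 to 0.33), for Trim10 -0.015 (-0.35 to 0.32) and for Fam132b -0.015 (-0.50 to 0.47). The tightest were Nfe2 at 0.035 (-0.086 to 0.16) and Bcl11a at 0.090 (-0.042 to 0.22). The median of the 10 genes was 0.044 and 8 of 10 were above 0, against 51.9% of all genes. Without P2H2KO replicate 11 only 2 of 10 were above 0, with a median of -0.032, and without P2KO replicate 6 or P2H2KO replicate 15 the median was 0.10. The same fits made calls elsewhere. Of 10 established HIF target genes, 4 were called in P2KO, 8 in P2H2KO and 8 in the pooled comparison, and all had fold changes above 0. Of all genes 0.0437%, 0.0744% and 0.17% were called in these comparisons. The HIF target list was chosen with earlier results of these data known, so its calls are no independent check of the fits.

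Marker lists of other marrow cells also had fold changes mostly of 1 sign. Of 13 genes of marrow macrophages, which hold red cell precursors in islands, 12 had fold changes below 0 in P2KO (median -0.29, 3 at an unadjusted p under 0.05), all 13 in P2H2KO (median -0.47, 11 at that level) and all 13 in the pooled comparison (median -0.37, 11 at that level). Only Siglec1, named after its value was seen, was called by edgeR, in the pooled comparison, at -0.65 (SE 0.11, adjusted p 0.0259), and DESeq2 called 1, 1 and 4 of the 13. Their summed level was 1258 to 1727 CPM in P2KO against 1551 to 1877 in P2WT, and 1004 to 1392 in P2H2KO against 1303 to 1793 in P2H2WT. Of 14 B lineage genes 9 were above 0 in P2KO (median 0.027), 0 in P2H2KO (median -0.32) and 1 in the pooled comparison (median -0.17). Their summed level was 3009 to 5195 CPM in P2H2KO and 4197 to 5845 in P2H2WT. Of 13 megakaryocyte genes 13 were above 0 in P2KO (median 0.42), 12 in P2H2KO (median 0.44) and 13 in the pooled comparison (median 0.47). Their sums were 130 to 400.03 CPM in P2KO and 126 to 259 in P2WT. The top sum was that of P2KO replicate 9 alone. P2KO replicates 1, 5 and 6, at 137, 130 and 216 CPM, lay within the range of P2WT. None of the B lineage genes was called by edgeR or DESeq2 or had an unadjusted p under 0.05. None of the megakaryocyte genes was called by edgeR or DESeq2, with 0, 1 and 0 in edgeR at an unadjusted p under 0.05. No gene of these 3 lists was under 1 CPM in all libraries, and the part of these cells in the values of the 10 genes was not tested.

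The control groups of the lines were also compared, because a difference between them can come from line, handling or date, which cannot be told apart here. Between P2WT and P2H2WT edgeR called 0 of the 10 genes, against 0.227% of 14080 genes, and DESeq2 called 0. Of the 10 fold changes 3 were above 0, against 48.3% of all genes. This count was 6 without P2H2WT replicate 14 and 0 without P2WT replicate 4. At an unadjusted p under 0.05 there were 2 of 10, Nfe2 and Fam132b, against 10% of all genes. All 4 P2WT libraries lay below all 4 P2H2WT libraries for Nfe2 (359 to 414 against 424 to 476 CPM), as happened in either direction for 7.77% of genes, and their log2 fold change was -0.17, with SE 0.081 and an edgeR adjusted p of 0.496. For Fam132b it was -0.77 (SE 0.32, edgeR adjusted p 0.409) and the groups overlapped.

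Across the 16 libraries, 7 of the 10 genes followed the red cell content of the library. This content was summarised as a red cell score, the mean log2 CPM of 25 genes of haem synthesis, the red cell membrane and iron uptake, such as Alas2, Slc4a1 and Tfrc, none of them among the 10. The score correlated with Trim10 at a Pearson r of 0.985 (Spearman rho 0.971), with Gata1 at 0.975 (0.921), Ermap at 0.972 (0.959), Klf1 at 0.969 (0.950), Tal1 at 0.965 (0.947), Epor at 0.959 (0.932) and Zfpm1 at 0.954 (0.956). For each of the 7 the permutation p of r was 1e-05, the smallest that 100000 permutations can give, and 1.43e-05 adjusted over the 10 relations. The adjusted permutation p of rho was at most 2.86e-05. These 7 genes were grouped after their values had been seen. The score and the genes share the library, its depth and its scaling. How many of all genes follow the score was not computed, so the relation is not shown to be particular to these 7. Among 12071 other genes, 453 (for Zfpm1) to 658 (for Ermap) had an r over 0.9 with each of the 7 after centring on the line.

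The relation held within each line and without the extreme libraries. Among the 8 libraries of the P2 line r was 0.964 to 0.996 over the 7 genes, and among the 8 of the P2H2 line 0.958 to 0.990 (exact permutation, largest adjusted p 0.000957 and 0.000673). By rank the relation was weaker. The largest adjusted exact permutation p of rho was 0.0311 in the P2 line (Gata1, rho 0.81) and 0.00652 in the P2H2 line. Leaving out P2H2KO replicate 15 and P2KO replicate 6, which were farthest from the median score, left r at 0.927 to 0.969. With a score of globin genes in place of the red cell list r was lower, 0.617 for Zfpm1 to 0.837 for Trim10, and all 7 were still called (largest adjusted permutation p 0.0157). That globin score averaged, with equal weight, the 5 of 6 globin genes that passed the filter. These include an embryonic globin that stayed under 1 CPM, so noise at low counts enters every relation with this score. Among themselves the 7 genes correlated at r between 0.891 and 0.982 in 21 of 21 pairs (largest permutation p adjusted over all 45 pairs 4.29e-05). Gata1 and Klf1 were the closest pair at 0.982, and the SD of their log2 ratio over the libraries was 0.054.

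**Figure D3:**
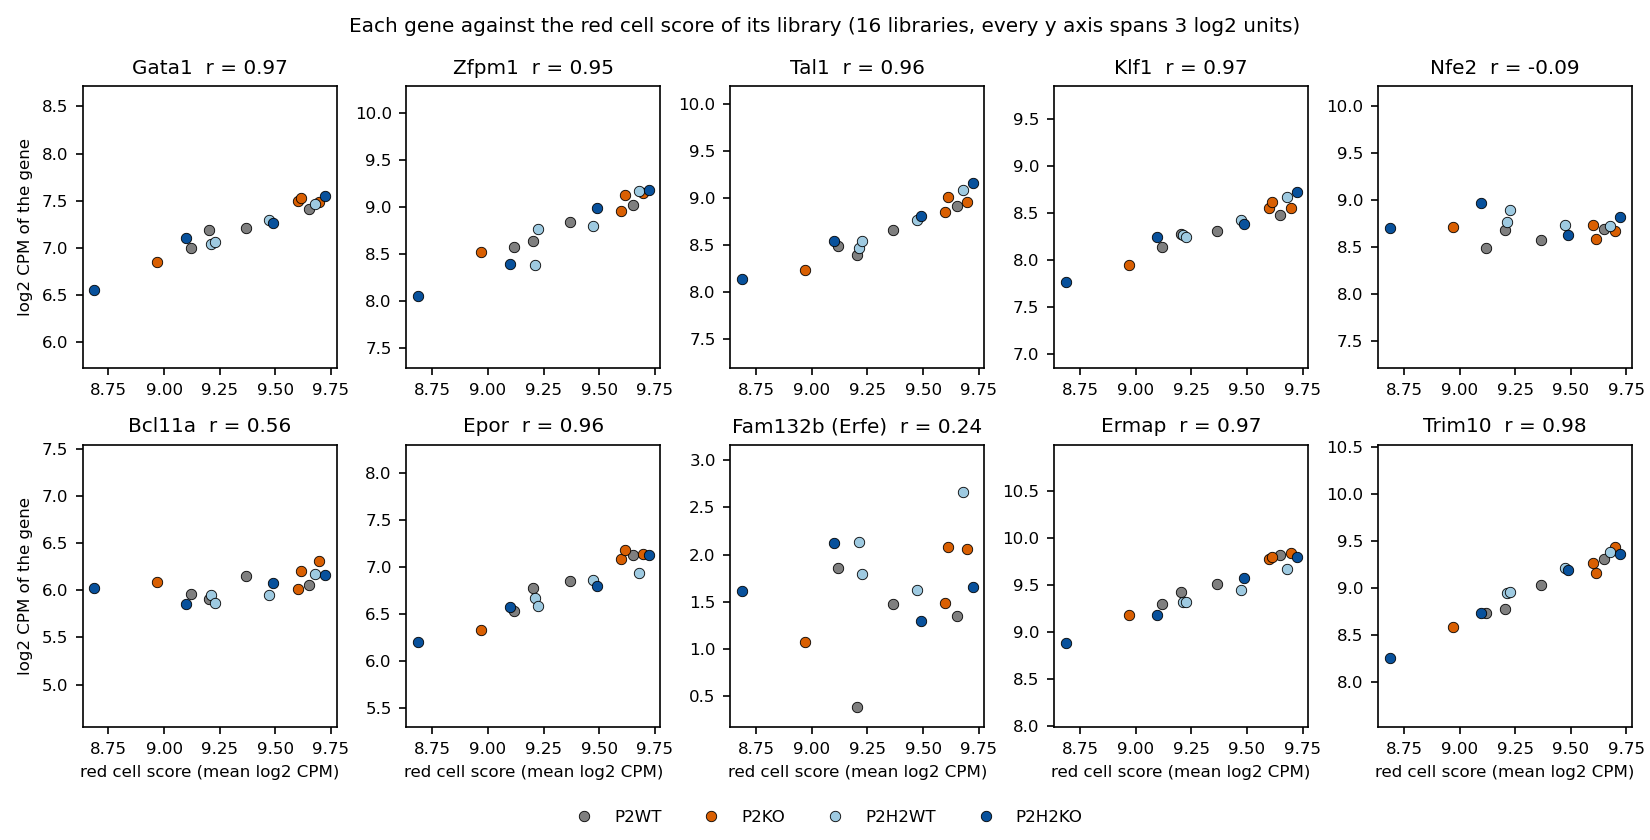
Each panel plots the log2 CPM of 1 gene against the red cell score (mean log2 CPM of 25 red cell genes) of the library, 1 point per library, 16 in all, coloured by group. The 7 genes with r of 0.954 or more form a line on which deficient and control libraries intermix, while Nfe2 (r = -0.093) is flat and Fam132b (r = 0.243) is scattered.

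The remaining genes did not follow the score in this way. Nfe2 had an r of -0.093 (rho -0.041, adjusted permutation p 0.731), although its product works beside GATA1 in red cell precursors. Fam132b had an r of 0.243 (rho 0.206, adjusted permutation p 0.404), with few counts behind it, and 0.523 with the globin score (adjusted permutation p 0.0494). Bcl11a lay between, with an r of 0.559 (rho 0.618, adjusted permutation p 0.0299 and 0.0154). Within the lines its r was 0.538 and 0.570 and was not called (adjusted exact permutation p 0.212 and 0.174). Without the same 2 libraries it was 0.802. With the globin score it was 0.226 (adjusted permutation p 0.441), and it lost its call (adjusted permutation p 0.0534 to 0.0723) when P2KO replicate 5 or 9, P2H2KO replicate 11 or 17 or P2H2WT replicate 14 was left out. No test compared the correlations of these 3 genes with those of the 7.

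The spread between libraries of 1 group was also compared before and after subtraction of the score. The SD within groups was 0.28 to 0.35 log2 units in the 7 genes, against a median of 0.20 over the genes tested and 0.33 for the score itself. After the score of each library was subtracted it was 0.050 for Ermap, 0.053 for Trim10, 0.066 for Tal1, 0.074 for Gata1, 0.080 for Epor, 0.084 for Klf1 and 0.11 for Zfpm1. For Nfe2 the SD went the other way, from 0.10 to 0.35, and for Bcl11a from 0.12 to 0.27. Fam132b was at 0.49 before and 0.52 after. The score was subtracted without scaling, so these changes largely follow from the spread of each gene and its correlation with the score. They are no separate result. The score ranged from 8.97 to 9.70 in P2KO, 9.12 to 9.65 in P2WT, 8.69 to 9.72 in P2H2KO and 9.21 to 9.68 in P2H2WT, so the groups overlapped in it.

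With the red cell score as a covariate, an alternative chosen after seeing the data, edgeR again called 0 of the 10 genes in each comparison. Of all genes it called 0.0801% in P2KO, 0.164% in P2H2KO, 0% in the difference between the lines, 0.376% pooled and 2.24% between the controls. The pooled log2 fold change of Gata1 went from 0.046 (SE 0.13) to 0.027 (SE 0.035), that of Epor from 0.042 (SE 0.14) to 0.022 (SE 0.040) and that of Ermap from 0.050 (SE 0.13) to 0.033 (SE 0.027). At a given red cell score, the 95% interval of the pooled effect was 0.967 to 1.07 times the control level for Gata1, 0.951 to 1.06 for Klf1, 0.956 to 1.08 for Epor and 0.983 to 1.06 for Ermap. The median over the 10 genes in P2KO against P2WT was 0.031 in place of 0.16, and Epor turned to -0.027. In P2H2KO against P2H2WT the median turned from -0.056 to 0.041. Between P2WT and P2H2WT, Ermap was at 0.13 (SE 0.038, edgeR adjusted p 0.0858) with the covariate and Nfe2 stayed at -0.17 (SE 0.072, edgeR adjusted p 0.195). A score measured in the same libraries would also absorb an effect on red cell genes as a whole, so these intervals concern each gene relative to the red cell list.

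**Figure D4:**
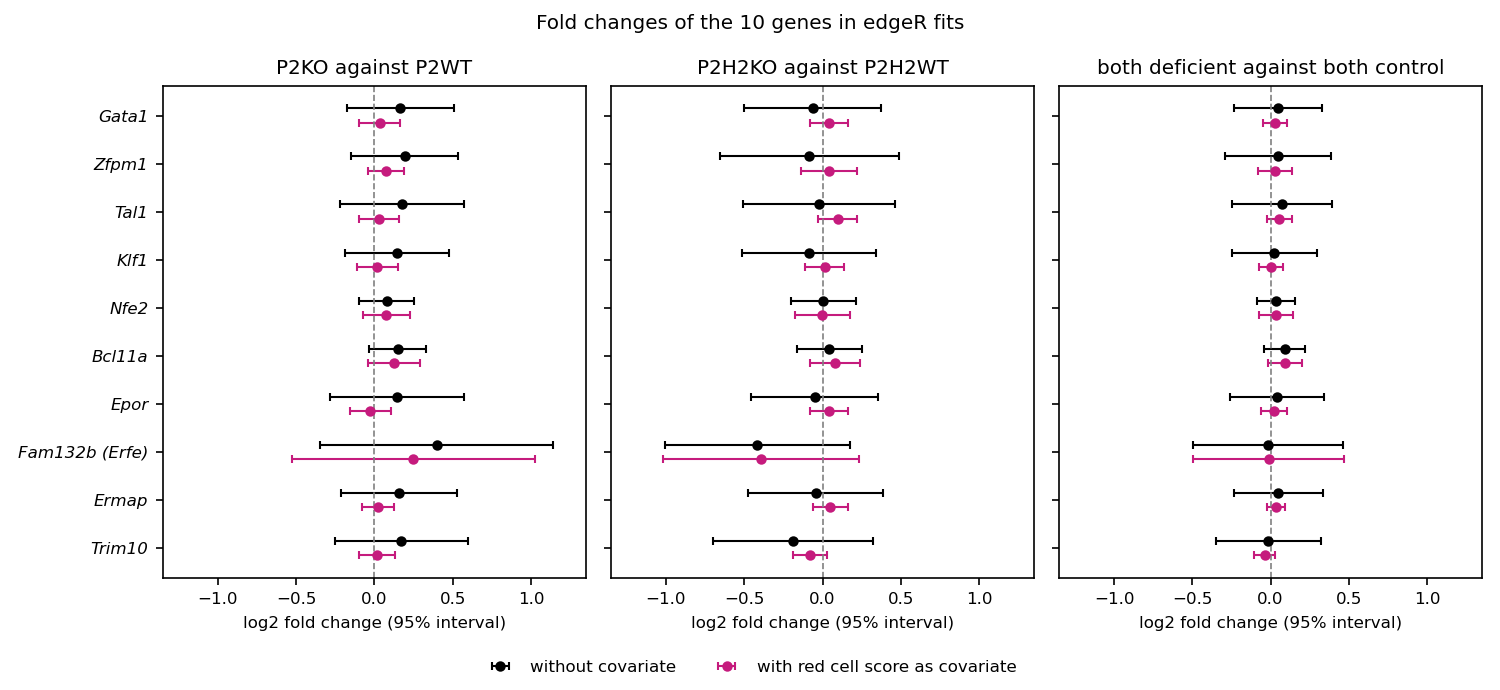
Log2 fold changes of the 10 genes with 95% intervals from edgeR, in P2KO against P2WT, P2H2KO against P2H2WT and both lines pooled, without (black) and with (magenta) the red cell score as a covariate. Every interval includes 0, and those of the 7 genes that follow the score narrow with it, as for Gata1 in the pooled comparison (SE 0.13 to 0.035).

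The titles of the libraries end in m or f, with 10 m and 6 f libraries spread unevenly over the groups. The m libraries were 3 of 4 in P2KO, 2 in P2WT, 2 in P2H2KO and 3 in P2H2WT. The difference between the 2 lines was therefore not balanced for m and f. The 2 kinds were compared after the data had been seen, in a fit that kept the 4 groups as terms. The fold change of m over f was 0.39 for Zfpm1 (SE 0.14, edgeR adjusted p 0.200) and 0.38 for Trim10 (SE 0.14, edgeR adjusted p 0.202) on the log2 scale. None of the 10 genes was called by edgeR, against 0.163% of 14080 genes. DESeq2 called 0 of the 10 genes, and 444 of the 14080 genes. At an unadjusted p under 0.05 there were 2 of 10 genes, close to the 17.5% of all genes. Of the 10 genes 9 were above 0, against 48.6% of all genes. For Trim10 the f libraries lay below all m libraries of their group in P2WT, P2H2KO and P2H2WT but not in P2KO, where the single f library, replicate 9, was at 572 CPM beside a mean of 563 in the m libraries. Without P2KO replicate 9 Zfpm1 was called at 0.57 (edgeR adjusted p 0.0374), in a fit that called 7.49% of all genes. Without P2KO replicate 6 Trim10 was called at 0.44 (edgeR adjusted p 0.0419), in a fit that called 3.3% of all genes. All 25 red cell genes were above 0 in this comparison, with a median of 0.31, and none was called by edgeR (13 of 25 at an unadjusted p under 0.05).

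The wider circuit was read from lists that hold none of the 10 genes. Of 26 partner factors of red cell transcription, such as Lmo2, Ldb1, Gfi1b and Runx1, 0 were called in each of the 5 comparisons above by edgeR and by DESeq2, and 0 had an unadjusted p under 0.05 in either. In the pooled comparison 17 were above 0 and 9 below, with a median of 0.021 against 0.0029 for all genes. The smallest p values there belonged to Zbtb7a, a globin repressor, at 0.062 on the log2 scale (SE 0.055), and to Chd4 and Mafg at 0.049 (SE 0.059) and 0.035 (SE 0.053). Of 22 genes of erythropoietin signalling, 0 were called in each comparison by edgeR and by DESeq2. At an unadjusted p under 0.05 edgeR gave 0 in P2KO, 0 in P2H2KO and 0 in the pooled comparison, 1 of 22 in the difference between the lines and 2 of 22 between the controls, against 1.51% and 10% of all genes. In the pooled comparison 17 were above 0 and 5 below, with a median of 0.015. Kit, the stem cell factor receptor, was at 0.077 (SE 0.064), and the feedback inhibitors Socs2 and Socs3, which STAT5 and other STAT factors induce, were at 0.22 (SE 0.19) and 0.17 (SE 0.20). Kit was the gene in the difference between the lines, at -0.29 (SE 0.13, edgeR adjusted p 0.999). Jak2 at 0.18 (SE 0.065) and Cish at -0.55 (SE 0.23) were those between the controls, with edgeR adjusted p values of 0.294 and 0.434, and all 3 of these genes were named after their values were seen.

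The genes most like each of the 10 were found by the Pearson r of log2 CPM over the 16 libraries, each centred on the mean of its line, among 12071 genes with a mean of at least 1 CPM. For both Gata1 and Klf1 these were Slc14a1, the red cell urea transporter, Cdc6 and Rab3il1 (r 0.985 to 0.991). For Tal1 they were Blm, Cpox, an enzyme of haem synthesis, and Cep76 (0.984 to 0.992), and for Epor they were Slc6a9, Cldn13 and Btnl10 (0.986 to 0.9898). For Zfpm1 they were Brpf3, Sptb, which encodes the β chain of red cell spectrin, and Tnk2 (0.984 to 0.987). Ermap was closest to Rnf123, Paqr9 and Sox6 (0.9903 to 0.995), and Trim10 to Epb42, a red cell membrane protein gene, Psme3 and Dhrs11 (0.992 to 0.994). Between 453 and 658 genes had an r over 0.9 with each of these 7. Nfe2 had 1 such gene, Dedd2 (0.908), followed by Pqlc1 and Cdc42ep3 (0.899 and 0.893). Bcl11a and Fam132b had 0, and were closest to Zfp397, Scaf8 and Mybl1 (0.864 to 0.875) and to Intu, Zbed4 and Zfand1 (0.781 to 0.8197).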

How the data were processed

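The authors deposited 2 tables of raw gene counts, 1 per line, with 8 libraries each, per the file headers. HTSeq and mm10 are named in the submitters' processing notes, and the aligner, annotation and strand setting are not given in the sources used here. Symbols and coordinates came from GENCODE M21, which matched 49326 of 49585 identifiers, and the rest held 0.00714% of counts. The 10 genes and all lists were chosen with earlier results of these data known.

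Each line was fitted alone, and the other comparisons over all 16 libraries, with filterByExpr, TMM scaling and the quasi-likelihood test of edgeR 4.0.16 in R 4.3.3. Adjusted p values are those of Benjamini and Hochberg for every gene in the fit, called under 0.05. CPM was computed here from the deposited counts, as was log2 CPM with a prior count of 2. Correlation p values used 100000 permutations for 16 libraries and all pairings for 8. The fits were tested on simulated counts. DESeq2 1.42.0 and other scalings, filters and left-out libraries were the alternatives. Named besides the 10 genes were Egln1, Epas1, the 3 partner and 3 signalling genes with the smallest pooled p, and the 3 genes most like each of the 10. Other genes named are examples of lists. Promoter windows came from RefSeq.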

Additional observations from a re-analysis of the deposited data

Results flagged for a closer look

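In 4 genes P2KO replicate 6 stood apart below the other 3 P2KO libraries by more than Dixon's 95% limit for 4 values. Gata1 was at 115 CPM there against 179 to 184 in the others, Klf1 at 246 against 375 to 392, Epor at 80.5 against 135 to 145 and Ermap at 579 against 873 to 914. In all, 40 groups of 4 libraries were examined, of which chance alone would place about 1 in 20 past the limit, and the genes are not independent, since these 4 correlated across the libraries. The red cell score of that library was also the lowest of its line.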

How the results depend on the processing

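No paired analysis was possible because the groups share no replicate numbers. A planned test for genes under the count filter was not needed, since all 10 genes passed. None of the 10 genes was called in the 5 comparisons above under any alternative. The number of libraries and their spread limit the precision to the intervals given. Of 400 log2 fold changes of the 10 genes under other settings, 375 kept their direction and side of the threshold and 25 changed sign, and the cause was not tested. Leaving out single libraries gave 800 values, of which 735 did so, 63 changed sign and 2 became called.

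The number of all genes called moved with DESeq2 to 23 in P2KO, 42 in P2H2KO, 65 pooled and 291 between controls. With the red cell score it was 11, 22, 53 and 316. Between controls it was 9 with no filter, 0 with at least 10 counts everywhere and 124 with the m or f of the titles as a covariate. Leaving out libraries gave 4 to 6, 6 (without P2H2WT replicate 13) to 9, 15 (without P2WT replicate 4) to 30, and 0 to 182 between controls (0 without P2WT replicate 3, 4 or 7 or P2H2WT replicate 13, and 182 without P2KO replicate 9).

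In P2H2KO against P2H2WT, Nfe2 turned to -0.0071 with no filter, -0.00079 with at least 10 counts, -0.010 with the m or f covariate and -0.00093 with the score. The m or f covariate also turned Gata1 to 0.018, Tal1 to 0.074, Epor to 0.018, Zfpm1 to 0.049 and Ermap to 0.029 there, and Gata1 to 0.038 and Zfpm1 to 0.075 between controls. The score turned Gata1 to 0.041, Klf1 to 0.014, Tal1 to 0.097, Epor to 0.042, Zfpm1 to 0.042 and Ermap to 0.049 in P2H2KO, and Epor to -0.027 in P2KO. It turned Gata1 to 0.044 and Zfpm1 to 0.046 between controls. In the contrast of the lines it turned Gata1 to -0.020, Klf1 to -0.0083, Tal1 to -0.079, Epor to -0.070 and Ermap to -0.036. The globin score turned the r of Nfe2 to 0.160.

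Leaving out single libraries turned these signs. In P2H2KO the ranges were -0.0025 to 0.11 for Bcl11a, -0.22 to 0.090 for Epor, -0.21 to 0.097 for Ermap, -0.22 to 0.096 for Gata1, -0.25 to 0.060 for Klf1, -0.060 to 0.055 for Nfe2, -0.21 to 0.13 for Tal1 and -0.27 to 0.085 for Zfpm1. Between controls they were -0.025 to 0.098 for Bcl11a, -0.066 to 0.14 for Epor, -0.057 to 0.16 for Ermap, -0.11 to 0.071 for Gata1, -0.24 to 0.028 for Tal1 and -0.15 to 0.11 for Zfpm1. Pooled they were -0.043 to 0.12 for Epor, -0.031 to 0.12 for Ermap, -0.13 to 0.11 for Fam132b, -0.032 to 0.12 for Gata1, -0.060 to 0.095 for Klf1, -0.0022 to 0.065 for Nfe2, -0.021 to 0.15 for Tal1, -0.099 to 0.072 for Trim10 and -0.047 to 0.13 for Zfpm1. For Nfe2 they were -0.0021 to 0.12 in the contrast, -0.025 to 0.056 for m against f, and -0.24 to 0.053 for its r with the score.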

Other observations

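Nfe2 ran against the other erythroid regulators in 1 respect. In a set of 30 relations added after the data had been seen, of the 10 genes with scores of neutrophil, B lineage and megakaryocyte genes, Nfe2 correlated with the neutrophil score at r = 0.674 (rho 0.691, adjusted permutation p 0.0226 for r and 0.0776 for rho). Its r was 0.471 within the P2 line and 0.741 within the P2H2 line, and 0.493 without P2KO replicate 9 and P2H2KO replicate 17, the libraries farthest from the median score. The 7 genes that followed the red cell score had an r of -0.727 (Ermap) to -0.597 (Klf1) with the neutrophil score (adjusted permutation p of r 0.0226 to 0.0328, of rho 0.0776 to 0.0971). Bcl11a had an r of -0.681 with it (adjusted permutation p 0.0226 for r and 0.0807 for rho). The same 7 genes had an r of 0.576 (Epor) to 0.682 (Zfpm1) with the B lineage score (adjusted permutation p of r 0.0226 to 0.0351, of rho 0.0807 to 0.141). Without P2H2KO replicate 15 and P2KO replicate 9 it was 0.255 to 0.440, so this relation rests on those libraries, and it was 0.193 to 0.412 within the P2 line and 0.746 to 0.862 within the P2H2 line. With the B lineage score Bcl11a had an r of 0.505 (rho 0.556, adjusted permutation p 0.0814 and 0.0807). With the megakaryocyte score 0 of the 10 genes had a called r. Shares of the same library enter both sides of these relations.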
